A study of Mus musculus with 23 samples.

Results

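The SLC1 and SLC6 amino acid transporters with collectrin are described here in mouse alpha cells and alpha cell tumors that lack the glucagon receptor. The 10 genes were chosen by name: the glutamate and neutral amino acid transporters Slc1a1, Slc1a2, Slc1a4 and Slc1a5, the sodium- and chloride-coupled transporters Slc6a6, Slc6a9, Slc6a17, Slc6a19 and Slc6a20a, and the accessory protein collectrin (Tmem27). All 10 were listed among the 28096 genes of the alpha cell table and the 22412 genes of the tissue table. RNA was sequenced in bulk in 23 libraries. Flow cytometry was used to sort alpha cells, which secrete glucagon, out of the islets of tamoxifen-treated mice that were heterozygous for GCGR (n = 3) or homozygous for its knockout (n = 5). Tamoxifen was given at 200 mg/kg for 5 days and islets were taken 14 to 21 days later, and the heterozygous controls had received it too. Dissected tumors (n = 7) and non-tumor pancreatic tissue (n = 8) both came from homozygous knockouts and are labelled as having no treatment. By these labels that pair contains no animal with the receptor. The labels give neither a Cre driver nor the age, strain, sex or animal of origin of a library, so the p-values rest on the spread between libraries of a group, which can be technical.

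Collectrin is a single-pass membrane protein without enzyme activity of its own. In the kidney it carries SLC6 transporters of neutral amino acids to the brush border, and in pancreatic beta cells it has been tied to insulin granule exocytosis and is shed by the protease BACE2. The SLC1 family takes up acidic amino acids or exchanges small neutral ones including glutamine, and the SLC6 family moves amino acids, taurine and neurotransmitters with sodium. Glucagon signalling in the liver drives amino acid breakdown, and animals without the receptor have high circulating amino acids and enlarged alpha cell mass.

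Values are as deposited and are taken as RPKM, reads scaled to the length of the gene and to the reads of the library. The unit was inferred, and how the authors scaled each library is not known. Differences are on log2(RPKM + 1), a scale that understates the change of low genes. Gcg, which encodes glucagon, held 61.3 to 69.5% of summed RPKM in all alpha cell libraries, and in tissue it held 27.8 to 46.8% in the tumors and 0.00477 to 0.0733% in the non-tumor libraries. The 16 acinar markers held 60.5 to 68.5% of summed RPKM in the non-tumor libraries against 0.850 to 21.9% in the tumors, so the non-tumor libraries were mostly exocrine pancreas. Gcgr itself was listed at 0 in the 3 heterozygous libraries as well as in 4 of 5 knockout ones, so its level does not check the alpha cell labels. In tissue Gcgr was at 0 in 7 of 7 tumors and in 2 of 8 non-tumor libraries, whose highest value was 0.135 RPKM. Depth is unknown for the alpha cell table. Its libraries fell into those with 13124 to 13882 genes above 0 (heterozygous 1 and 2, knockout 1 and 2) and those with 16123 to 16579 (heterozygous 3, knockout 3, 4 and 5). In tissue, 5986532 to 12059344 reads were recovered per non-tumor library and 11029557 to 15282180 per tumor, as lower bounds. Over all 10220 tissue genes tested, the median difference between tumors and non-tumor tissue was 1.46 on the log2 scale, so each tissue difference is also given relative to that shift, with every library set to the same median. The 2 tables were normalised separately, and levels set across them carry no test.

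Of the 10 genes, 3 passed the expression filter in alpha cells (at least 1 RPKM in 3 libraries), namely Tmem27, Slc6a6 and Slc6a17. None of the 3 was called between knockout and heterozygous cells by limma at an adjusted p of 0.05, and 1 of them, Tmem27, had an unadjusted p under 0.05. Among all genes tested in that comparison 0.159% were called higher and 0.103% lower, and 1132 of 10718 had an unadjusted p under 0.05. In tissue 6 of the 10 passed the filter (at least 1 RPKM in 7 libraries), and 3 were called higher in tumors (Tmem27, Slc6a17 and Slc6a6) where 90.7% of all genes were called higher. Of these, Slc6a17 reached 1 RPKM in 7 of 7 tumors and in 0 of 8 non-tumor libraries. It thus entered the test only through the group where it is high, which favours a call in that direction. Called lower were 2, Slc6a9 and Slc1a5, where 3.68% of all genes were. Relative to the shift, 3 were called higher and 3 lower (Slc1a4 with the other two), against 28.6% and 36.7% of all genes. The median difference of the 6 was 1.10 on the deposited scale against 1.46 over all genes.

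**Figure D1:**
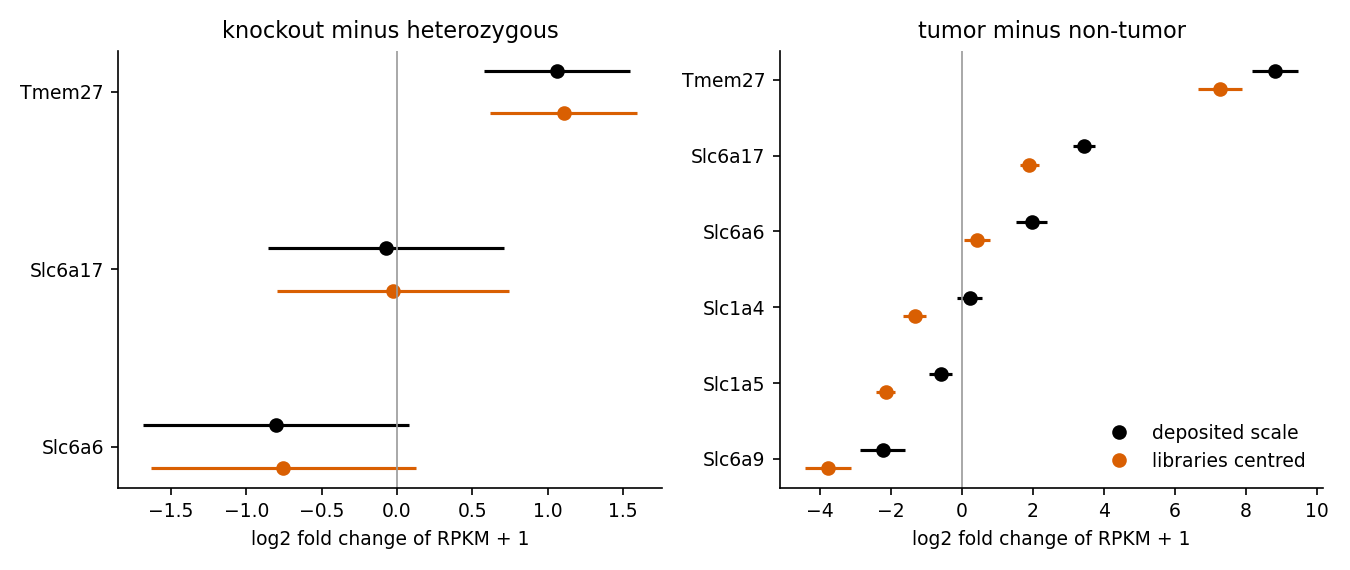
Log2 fold changes of RPKM + 1 for the genes that passed the filter, knockout minus heterozygous alpha cells (left) and tumor minus non-tumor tissue (right), with 95% confidence intervals from limma. Black points are on the deposited scale and orange points have each library centred on its median gene; Slc1a4 sits at 0.22 in black and at -1.32 in orange.

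Collectrin was the highest of the 10 genes in every alpha cell library and every tumor, while in non-tumor tissue its mean lay below those of Slc6a9 and Slc1a5. Its gene, annotated as Cltrn, lies on chromosome X from 164088830 to 164118860 (GRCm38, plus strand). The 300 bases around its upstream RefSeq start are shown because Tmem27 is the gene with the largest tissue difference of the 6 tested (chrX:164089937-164090236, GRCm38.p6, plus strand, 5′ to 3′). Capitals would mark a cAMP response element TGACGTCA or the amino acid response element core TGATGNAA on either strand, and no letters of this window matched them.
Tmem27 promoter: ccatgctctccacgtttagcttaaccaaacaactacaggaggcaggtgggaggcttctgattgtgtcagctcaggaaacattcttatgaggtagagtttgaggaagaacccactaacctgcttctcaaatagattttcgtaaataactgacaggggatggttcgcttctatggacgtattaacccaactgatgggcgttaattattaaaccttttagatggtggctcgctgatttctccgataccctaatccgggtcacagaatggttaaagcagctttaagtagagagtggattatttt
The cAMP response element was present in 1.79% and the amino acid response element core in 3.97% of 32851 RefSeq promoters of that length. Its downstream RefSeq start (chrX:164091939-164092238) held neither.

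In alpha cells, Tmem27 measured 334.9, 278.8 and 312.4 RPKM in heterozygous libraries 1 to 3. In knockout libraries 1 to 5 it measured 491.6, 669.7, 810.0, 710.6 and 577.5 RPKM. Every knockout library was above every heterozygous one, and the group means were 651.9 ± 122 (SD, n = 5) and 308.7 ± 28.2 RPKM (SD, n = 3). The difference was 1.06 on the log2 scale (SE 0.23, 95% interval 0.57 to 1.54), or 2.08-fold, with an adjusted p of 0.0862 in limma, which missed the threshold. Over the alternative settings the adjusted p ran from 0.0112, with libraries weighted by their quality, to 0.534. Within the libraries with at least 15000 genes above 0 (1 heterozygous, 3 knockout) the difference was 1.15, and within the others (2 and 2) it was 0.91. Tmem27 is X-linked, and heterozygous library 3, with Xist at 103.7 RPKM and a summed 0.112 RPKM over 4 Y-linked genes, was the single alpha cell library with a female pattern; its 312.4 RPKM lay between those of the other 2 controls.

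In tissue, Tmem27 had a lowest, median and highest level of 0.697, 2.38 and 7.36 RPKM over the 8 non-tumor libraries. Tumors 1 to 7 held 1027, 1735, 1460, 2421, 1727, 2655 and 1496 RPKM. The groups lay far apart without overlap, and the recovered reads were 10 to 62 per non-tumor library and 23447 to 59007 per tumor. The tumors were higher by 8.82 on the log2 scale (SE 0.31, limma adjusted p = 7.27e-14) and by 7.28 relative to the shift (adjusted p = 5.75e-12). The Y-linked genes summed to 0 to 0.120 RPKM in non-tumor libraries 2, 7 and 8 and in tumor 2, so both tissue groups mix the sexes for this X-linked gene; tumor 2 (1735 RPKM) lay within the range of the other tumors. In these bulk samples a larger number of alpha cells and more RNA per cell cannot be told apart. Per 1000 RPKM of Gcg, Tmem27 ran from 11.8 to 24.1 RPKM in non-tumor tissue and from 6.85 to 14.2 in the tumors, ranges that overlap with the tumors on the low side. The same ratio ran from 0.865 to 1.49 over the heterozygous and from 1.23 to 2.51 over the knockout alpha cell libraries, also overlapping. In non-tumor tissue the 7 beta cell markers summed to a median of 2322 RPKM and the 8 alpha cell markers to 160. In tumors these medians were 652 and 193920. The ratio in non-tumor tissue therefore need not describe alpha cells, and which cells held Tmem27 was not tested. The 3 genes whose tissue pattern was most like that of Tmem27 over the 15 libraries, by root mean square distance of log2 values centred per gene, were Ttr (0.391), Gcg (0.801) and Eef1a2 (0.817). Ttr, which encodes transthyretin, and Gcg are markers of alpha cells, and Eef1a2 encodes a translation elongation factor of muscle and neurons.

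**Figure D2:**
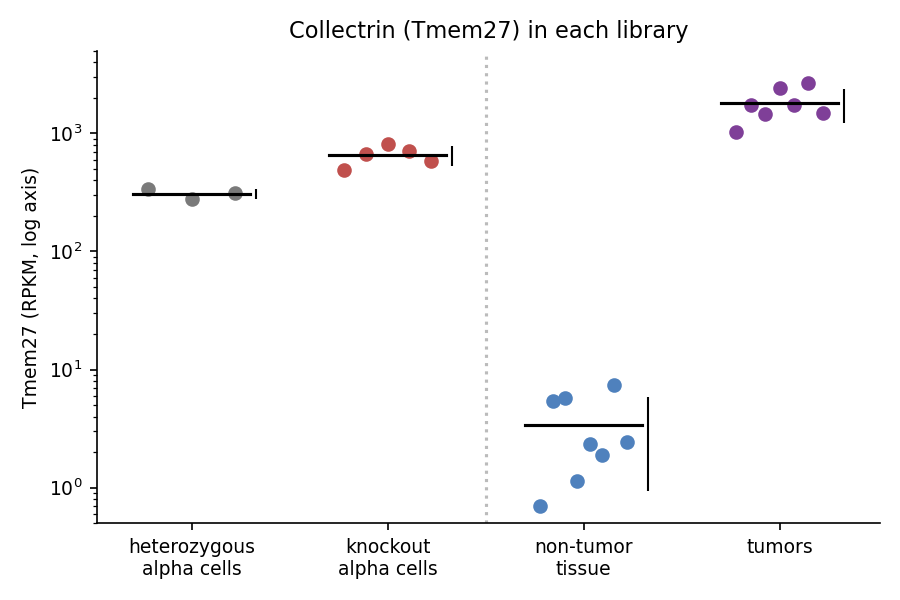
Tmem27 in RPKM (log axis) in each of the 23 libraries, with the group mean as a horizontal line and its SD as a bar at its right; the dotted line separates the tables, which were normalised separately. All 5 knockout alpha cell libraries lie above the 3 heterozygous ones, and the tumors (1027 to 2655) lie far above non-tumor tissue (0.697 to 7.36).

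The transporters that collectrin is known to carry to the kidney brush border were at or near 0 in every group. Slc6a19, which encodes the broad neutral amino acid transporter B0AT1 (chromosome 13, 73679745 to 73704865), was listed at 0 in all 8 alpha cell libraries. It had 0 to 7 reads per non-tumor library and 0 to 22 per tumor, with means of 0.0785 ± 0.0903 (SD, n = 8) and 0.170 ± 0.122 RPKM (SD, n = 7), and the 2 ranges overlap. An antisense gene, Slc6a19os, overlaps it, and without strand in the sources its reads cannot be told apart from those of Slc6a19. Slc6a20a, which encodes a proline and imino acid transporter (chromosome 9, 123634770 to 123678885), was listed at 0 in all 8 alpha cell libraries and in all 7 tumors. Its whole signal in tissue was 0.0736 RPKM in non-tumor library 2. With no other value above 0 to set it against, the recovered count of 1 read there is only a lower bound. A count of 0 allows up to 3 reads in a library, by counting error only. Its close copy Slc6a20b had a median of 0.115 RPKM in the heterozygous libraries (highest 2.02) and of 0.224 RPKM in the knockout libraries (highest 2.26). Reads shared by Slc6a20a and Slc6a20b can have been split between them. Neither Slc6a19 nor Slc6a20a passed the filter, so no test was made.

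Slc6a6, which encodes the taurine transporter TauT (chromosome 6, 91684053 to 91759066, plus strand), had the highest mean of the 9 SLC1 and SLC6 transporters described in both alpha cell groups. It measured 37.5, 20.2 and 16.2 RPKM in heterozygous libraries 1 to 3, and 16.5, 6.38, 14.7, 12.2 and 17.9 RPKM in knockout libraries 1 to 5. The ranges overlap, since knockout libraries 1 and 5 exceed heterozygous library 3. The difference was -0.80 (SE 0.41, 95% interval -1.69 to 0.08, limma adjusted p = 0.505), which missed the threshold. Among libraries with at least 15000 genes above 0 it was -0.12, and among the rest -1.33.

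In tissue, Slc6a6 had a lowest, median and highest level of 0.600, 3.06 and 3.76 RPKM in non-tumor libraries and 9.80, 14.7 and 19.98 in tumors. The groups do not overlap, and the reads behind these levels were 24 to 128 and 555 to 1358 per library. The tumors were higher by 1.97 on the log2 scale (SE 0.21, limma adjusted p = 4.80e-08). Relative to the shift the difference was 0.43 (adjusted p = 0.0426). That call was lost when non-tumor library 1, 2 or 7 or tumor 4, 5, 6 or 7 was left out (adjusted p = 0.0590 to 0.0876 over these 7), with quantile normalization (0.37, adjusted p = 0.109), with a pseudocount of 0.1 (0.35, adjusted p = 0.257), with a mean filter of 5 RPKM (0.28, adjusted p = 0.188) and with an acinar covariate (0.52, adjusted p = 0.442). The annotated gene models Gm45828, 4930517G19Rik and Gm44981 overlap Slc6a6.

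Slc6a17, which encodes a vesicular neutral amino acid transporter of synapses (chromosome 3, 107467543 to 107518018, minus strand), had overlapping levels in the alpha cell groups. Heterozygous libraries 1 to 3 measured 13.3, 7.29 and 8.55 RPKM, and knockout libraries 1 to 5 measured 8.74, 10.9, 7.77, 8.41 and 9.001. All 5 knockout values lie inside the heterozygous range. The difference was -0.07 (SE 0.36, 95% interval -0.86 to 0.71, limma adjusted p = 0.964), and it was 0.08 with quantile normalization and 0.16 without heterozygous library 1, so no direction is given.

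In tissue, Slc6a17 had a lowest, median and highest level of 0.0389, 0.147 and 0.312 RPKM in non-tumor libraries and 8.01, 10.3 and 15.7 in tumors. There was no overlap, with 1 to 11 reads per non-tumor library and 531 to 1244 per tumor. The gene passed the filter through the tumors alone. The tumors were higher by 3.44 on the log2 scale (SE 0.15, limma adjusted p = 5.71e-13) and by 1.90 relative to the shift (adjusted p = 2.07e-09). Per 1000 RPKM of Gcg its level ran from 0.0464 to 0.0917 in tumors and from 0.127 to 2.51 in non-tumor tissue, where a few reads set the value. The genes nearest to it in pattern over the 15 tissue libraries were Ahi1 (0.143), a gene of the primary cilium, Insm1 (0.176), a transcription factor of neuroendocrine differentiation, and Syn1 (0.191), a synaptic vesicle protein.

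Slc6a9 was lower in tumors. It encodes the glycine transporter GlyT1 (chromosome 4, 117834506 to 117875198, plus strand). Its lowest, median and highest levels were 9.97, 14.2 and 17.5 RPKM in non-tumor libraries and 0.464, 2.78 and 8.28 in tumors, with no overlap. Tumor 7 was the highest tumor at 8.28 RPKM, and tumors 2 and 5 were the lowest at 0.464 and 0.643. The difference, tumor minus non-tumor, was -2.23 on the log2 scale (SE 0.30, limma adjusted p = 1.29e-06) and -3.77 relative to the shift (adjusted p = 1.68e-08). The acinar markers moved with it: their summed RPKM was 375299 to 491746 in non-tumor tissue, with all 16 markers above 1 RPKM in 50% or more of the libraries, and 3550 to 107653 in tumors, with 15 of 16. No acinar marker was at 0 in every tumor. Tumor 7, the highest in Slc6a9, also had the highest acinar share (21.9%), and tumors 2 and 5 had the lowest (1.16 and 0.850%). With the acinar level as a covariate the difference turned to 0.22 (limma adjusted p = 0.584). The acinar marker sums do not overlap between the groups, so this fit cannot fully separate the acinar level from the group. The part of acinar RNA in the result was not tested. Homer2 (0.207), Gls2 (0.208) and P2rx1 (0.223) were nearest to Slc6a9 in pattern; they encode a postsynaptic scaffold protein, a glutaminase and an ATP-gated channel. B4galt2 and Ccdc24 overlap Slc6a9 on the other strand, so their reads cannot be told apart without strand.

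**Figure D3:**
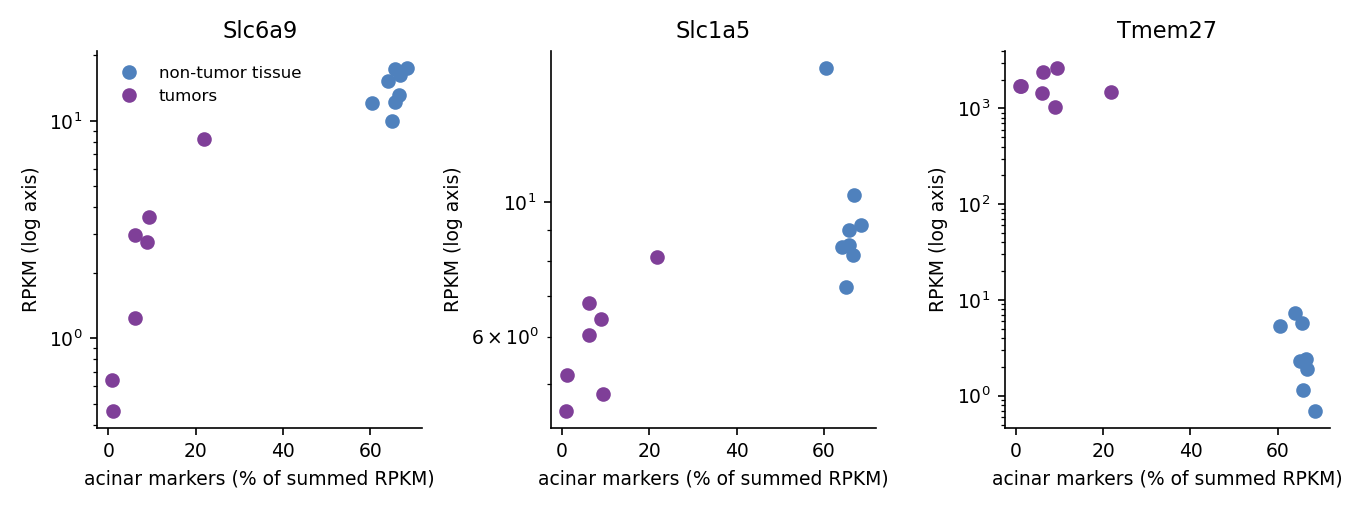
Slc6a9, Slc1a5 and Tmem27 in RPKM (log axes) against the share of summed RPKM held by 16 acinar markers, 1 point per tissue library. Tumor 7, at 21.9% acinar markers, has the highest Slc6a9 (8.28) and Slc1a5 (8.12) of the tumors, while its Tmem27 (1496) lies among the other tumors.

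In alpha cells Slc6a9 was near 0 in all but 1 library. It measured 0.021, 2.50 and 0.123 RPKM in heterozygous libraries 1 to 3, and 0.023, 0.106, 0.726, 0.025 and 0.035 in knockout libraries 1 to 5. Heterozygous library 2 stood alone, and it also held the most acinar RNA of the 8 libraries, with 3157 RPKM summed over the 16 markers against 7.07 to 451.9 in the others. Rbpjl and Ptf1a, transcription factors of acinar cells, were at 0 in all heterozygous libraries. Slc6a9 did not pass the filter in alpha cells, and the part of acinar RNA in its value there was not tested.

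Slc1a5, which encodes the glutamine exchanger ASCT2 (chromosome 7, 16781340 to 16798274, plus strand), was low in sorted alpha cells and higher in both kinds of tissue. It measured 0.276, 0.320 and 0.610 RPKM in heterozygous libraries 1 to 3 and 0.294, 1.03, 0.739, 0.808 and 3.45 in knockout libraries 1 to 5. The groups overlap, and knockout library 5 stands above the rest. The 6 immune markers listed for alpha cells summed to 56.4 RPKM in that library against 0.588 to 9.69 in the other alpha cell libraries. A link between immune RNA and the Slc1a5 value was not tested. Slc1a5 did not pass the filter there. In tissue its lowest, median and highest levels were 7.25, 8.76 and 16.7 RPKM in non-tumor libraries and 4.53, 6.04 and 8.12 in tumors, and the ranges overlap in tumor 7. The difference was -0.59 on the log2 scale (SE 0.15, limma adjusted p = 0.00124) and -2.13 relative to the shift (adjusted p = 4.20e-10). With the acinar covariate the deposited-scale difference was -0.11 (limma adjusted p = 0.773), a fit with the limit given for Slc6a9. The recovered reads, 166 to 425 per non-tumor library and 236 to 392 per tumor, give the precision of these levels.

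Slc1a4, which encodes the serine, alanine and cysteine exchanger ASCT1 (chromosome 11, 20302180 to 20332713, minus strand), measured 0.722, 10.5 and 0.806 RPKM in heterozygous libraries 1 to 3. The 5 knockout libraries measured 0.019, 0.020, 0.562, 1.16 and 0.979 RPKM. Heterozygous library 2 again stood alone, and the groups overlap. That library held the most acinar RNA of the alpha cell libraries, while non-tumor tissue, mostly exocrine, held 0.813 to 1.37 RPKM of Slc1a4. The part of acinar RNA in the value of heterozygous library 2 was not tested. Slc1a4 missed the filter in alpha cells. In tissue its lowest, median and highest levels were 0.813, 1.11 and 1.37 RPKM in non-tumor libraries and 0.721, 1.22 and 3.61 in tumors, with tumor 7 the highest and the ranges overlapping. The difference was 0.22 (SE 0.16, 95% interval -0.12 to 0.56, limma adjusted p = 0.192) on the deposited scale and -1.32 relative to the shift (adjusted p = 1.20e-06), so its direction depends on the scale. With array weights the deposited-scale difference was called at 0.36 (adjusted p = 0.0176). With the acinar covariate it was called at 1.14 (adjusted p = 0.00376), where the difference relative to the shift was -0.38 (adjusted p = 0.374). The limit of that covariate is given above for Slc6a9. The amino acid response element core TGATGNAA had 1 match in the Slc1a4 promoter, with its first base at position -4 from the start, and none in those of Tmem27 and Slc6a17. That promoter (chr11:20332664-20332963, GRCm38.p6, minus strand, 5′ to 3′) is shown for this match, which is in capitals and lies on the opposite strand.
Slc1a4 promoter: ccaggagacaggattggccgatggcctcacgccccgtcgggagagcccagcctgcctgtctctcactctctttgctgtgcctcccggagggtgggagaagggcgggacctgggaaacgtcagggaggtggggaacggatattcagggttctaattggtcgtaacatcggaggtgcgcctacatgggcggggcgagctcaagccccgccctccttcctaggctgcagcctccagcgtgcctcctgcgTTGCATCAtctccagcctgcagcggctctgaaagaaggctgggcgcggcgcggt

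The acidic amino acid transporters were close to absent from the values. Slc1a1, which encodes the glutamate and cysteine transporter EAAT3 (chromosome 19, 28835049 to 28913960), was listed at 0 in all 3 heterozygous libraries and in knockout libraries 1 to 3, with 0.239 and 0.016 RPKM in knockout libraries 4 and 5. In tissue it had 0 to 5 reads per non-tumor library and 5 to 36 per tumor, with means of 0.0593 ± 0.0685 (SD, n = 8) and 0.353 ± 0.274 RPKM (SD, n = 7). Those ranges overlap, and the gene was below the filter. Slc1a2, which encodes the glial glutamate transporter EAAT2 (chromosome 2, 102658659 to 102790784), was at 0 in 7 of 8 alpha cell libraries and had at most 3 reads in any tissue library. Antisense or overlapping gene models are annotated at both.

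**Figure D4:**
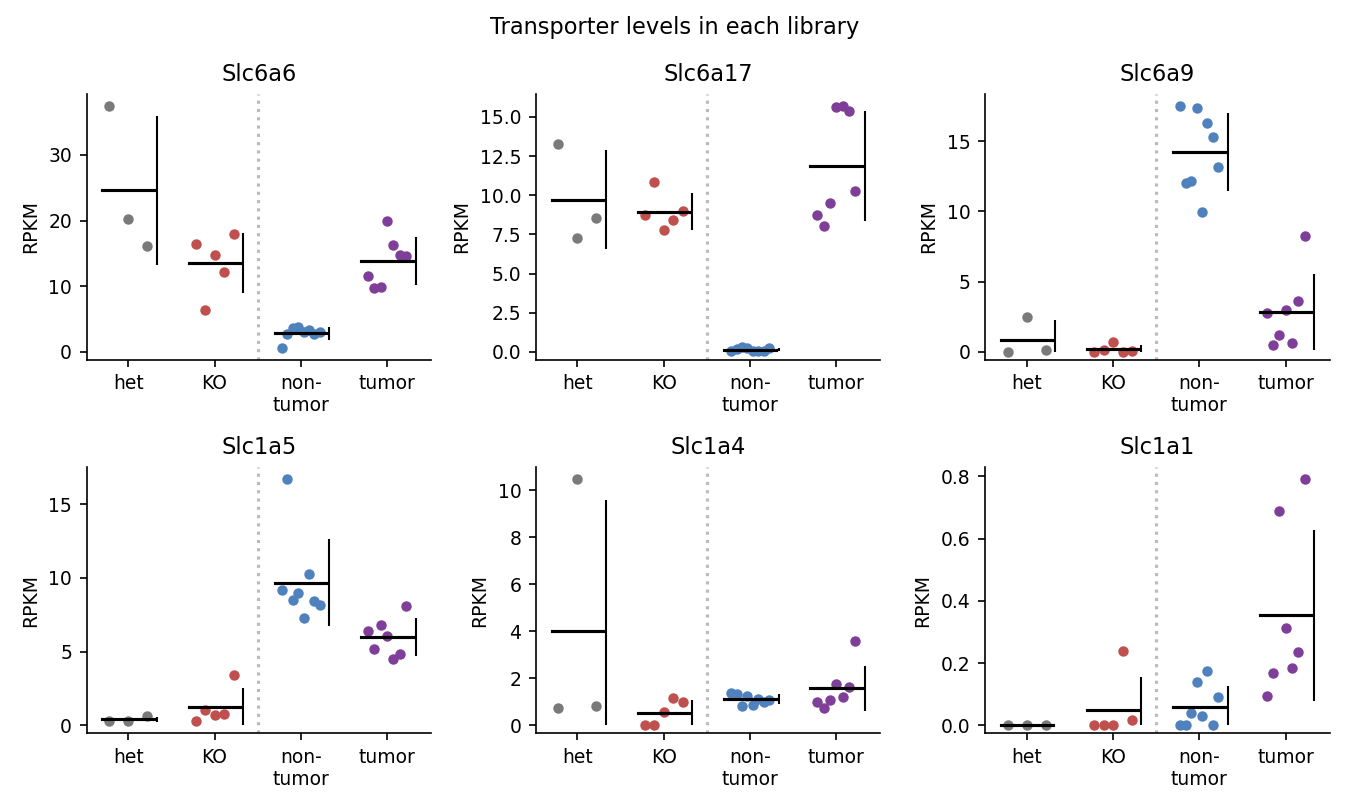
RPKM of 6 transporters in each library of the 4 groups (linear axes that differ between panels), with the group mean as a line and its SD as a bar, not drawn below 0; the dotted line separates the tables. Slc6a6 and Slc6a17 are high in tumors and low in non-tumor tissue, and Slc6a9 the reverse.

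Ranked by mean RPKM, a scale per gene length, the order was Tmem27, Slc6a6, Slc6a17 in heterozygous and knockout alpha cells and in tumors alike. In heterozygous cells Slc6a6 was above Slc6a17 in 3 of 3 libraries with ranges apart. In knockout cells it was above in 4 of 5 and in tumors in 6 of 7, with overlapping ranges. Within a library the ratio of Slc6a6 to Slc6a17 was 1.56 ± 0.583 in knockout cells (SD, n = 5) and 1.18 ± 0.174 in tumors (SD, n = 7). Whether these neighbours differ was not tested. Slc1a5 came next in knockout cells and tumors, and Slc1a4 in heterozygous cells, where its mean rests on heterozygous library 2. In non-tumor tissue the order was Slc6a9, Slc1a5, Tmem27, Slc6a6 and Slc1a4, each overlapping the next in range.

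Shares of the summed RPKM of the 9 transporters within a library do not depend on how a library was scaled; they were chosen after the values were seen and carry no test. Slc6a6 held 61.2 ± 11.4% of the sum in heterozygous cells (SD, n = 3), 53.9 ± 11.5% in knockout cells (SD, n = 5), 37.7 ± 4.09% in tumors (SD, n = 7) and 10.3 ± 3.92% in non-tumor tissue (SD, n = 8). Slc6a17 held 25.4 ± 7.35% in heterozygous cells, 38.1 ± 12.1% in knockout cells, 32.5 ± 5.93% in tumors and 0.540 ± 0.378% in non-tumor tissue. These 2 genes thus carried most of the transporter RNA of every alpha cell library and of every tumor. In non-tumor tissue Slc6a9 held 50.4 ± 7.37% and Slc1a5 34.0 ± 6.74%, against 7.15 ± 5.66% and 17.1 ± 4.93% in tumors. The Slc1a5 share was 1.21 ± 0.970% in heterozygous and 4.85 ± 3.77% in knockout alpha cells, and the tumor range, 11.7 to 23.3%, lay above both.

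**Figure D5:**
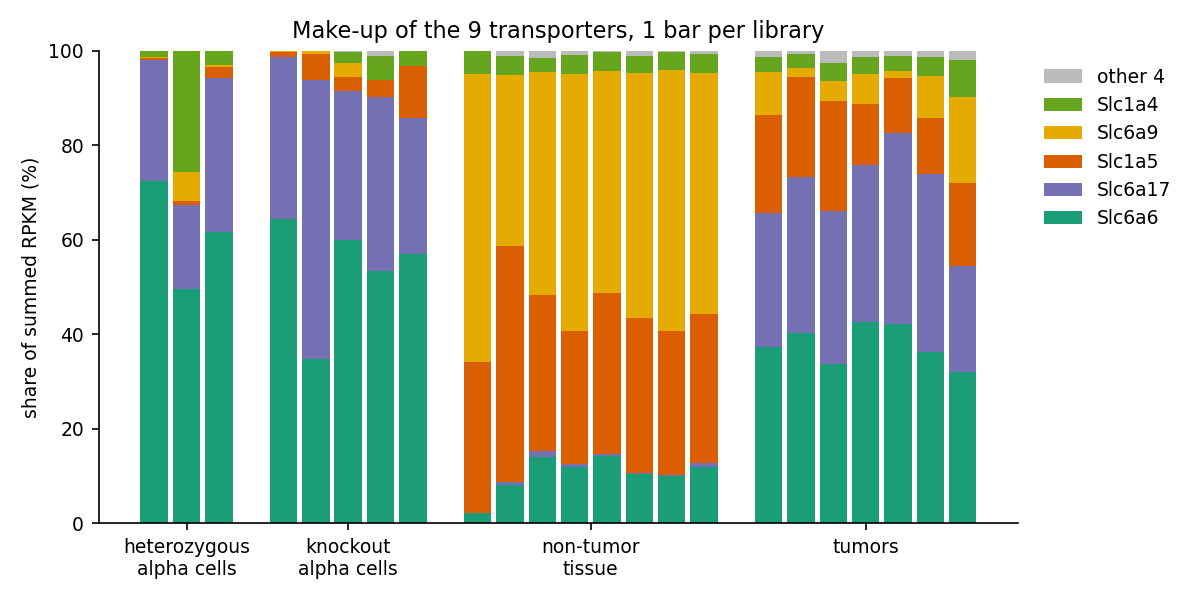
Share of the summed RPKM of the 9 transporters held by each gene, 1 stacked bar per library, grouped by the 4 sample groups. Slc6a6 and Slc6a17 fill most of the alpha cell and tumor bars, Slc6a9 and Slc1a5 most of the non-tumor bars, and the second heterozygous bar has the largest Slc1a4 segment (25.7%).

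Collectrin was also set against the summed RPKM of the 9 transporters in the same library, again as a description. The ratio ran from 6.47 to 11.9 in heterozygous cells and from 18.4 to 36.4 in knockout cells, ranges that do not overlap. In non-tumor tissue it ran from 0.0243 to 0.266, and the tumors covered 32.6 to 71.3. The summed transporter level itself spanned 26.3 to 51.8 RPKM in heterozygous and 18.4 to 31.4 RPKM in knockout cells, which do overlap.

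Exocytosis and protease genes listed beside collectrin were looked at next. Snapin, a SNARE-associated protein that binds collectrin, had 12.9 ± 3.13 RPKM in heterozygous (SD, n = 3) and 7.62 ± 3.93 in knockout alpha cells (SD, n = 5), a difference of -0.81 (SE 0.47, limma adjusted p = 0.554) that missed the threshold. Snap25, a SNARE protein of granule exocytosis, had 77.8 ± 18.7 and 74.1 ± 16.1 RPKM, a difference of -0.06 (SE 0.29, adjusted p = 0.958). Neither Bace1 (0.25, SE 0.54, adjusted p = 0.899) nor Stx1a (-0.39, SE 0.82, adjusted p = 0.897) was called, and Bace2 did not pass the filter.

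In tissue, Snap25 had 0.444 ± 0.306 RPKM in non-tumor libraries (SD, n = 8) and 25.9 ± 3.97 in tumors (SD, n = 7), a difference of 4.24 (limma adjusted p = 4.12e-14) and of 2.70 relative to the shift (adjusted p = 7.07e-12). Stx1a, another SNARE protein, was higher by 2.98 (1.44 relative to the shift, adjusted p = 8.62e-07), and the membrane protease Bace1 by 2.42 (0.88 relative to the shift, adjusted p = 4.08e-05). Snap25 and Stx1a each reached 1 RPKM in 7 of 7 tumors and in 0 of 8 non-tumor libraries. Both thus entered the test only through the group where they are high, which favours a call in that direction. Snapin was higher by 1.22 (limma adjusted p = 1.76e-06), which was -0.32 relative to the shift (adjusted p = 0.0751). Bace2, the sheddase of collectrin in beta cells, differed by 0.77 on the deposited scale (adjusted p = 0.0415) and by -0.77 relative to the shift (adjusted p = 0.0331), so its direction depends on the scale.

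Of 18 other SLC1 and SLC6 genes, 1 passed the filter in each table, the creatine transporter Slc6a8. It was not called in alpha cells (-1.38, SE 0.58, limma adjusted p = 0.432) and was 1.37 higher in tumors (adjusted p = 2.06e-08), a difference of -0.17 relative to the shift (adjusted p = 0.239). Of 27 other plasma membrane amino acid transporters, 16 were tested in alpha cells and 1, the glutamine and neutral amino acid transporter Slc38a5, was called. It rose from 19.1 ± 10.4 (SD, n = 3) to 239.8 ± 52.9 RPKM (SD, n = 5), a difference of 3.69 (SE 0.34, limma adjusted p = 0.000285), while the median over the 16 was -0.23. In tissue 18 of 20 were called higher, against 90.7% of all genes, and 2 lower, against 3.68%: the cationic amino acid transporter Slc7a3 and the glutamine transporter Slc38a3. Among those called higher, Slc3a1, Slc7a14 and Slc36a4 reached 1 RPKM in 7 of 7 tumors and in 0 of 8 non-tumor libraries. Slc7a3 reached it in 8 of 8 non-tumor libraries and in 0 of 7 tumors. Such genes entered the test only through the group where they are high, which favours a call in that direction. Relative to the shift 8 of the 20 were higher, with the lowest p for Slc38a4 (3.58), and 10 lower, against 28.6% and 36.7% of all genes.

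Of 32 enzymes of the carried amino acids, 23 were tested in alpha cells and none was called, with the lowest p for Gclc (-2.20, SE 0.93, limma adjusted p = 0.426), a subunit of the enzyme that starts glutathione synthesis. In tissue 17 of 27 were called higher and 8 lower, against 90.7% and 3.68% of all genes. The glutaminase gene Gls2 differed by -2.18 (limma adjusted p = 1.40e-06) and by -3.72 relative to the shift. Lower beside Gls2 were Asns, Phgdh, Psat1, Pycr1, Prodh, Gpt and Gpt2, of asparagine, serine, proline and alanine metabolism. Relative to the shift the counts were 6 higher and 14 lower, against 28.6% and 36.7% of all genes. Of 9 vesicular and mitochondrial carriers 2 were tested in alpha cells, with none called, and 4 in tissue, where 3 were called higher (Slc25a12, Slc25a22 and Slc25a38; 90.7% of all genes were). Relative to the shift 2 were higher and 2 lower, against 28.6% and 36.7% of all genes.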

How the data were processed

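Bulk RNA was sequenced from 8 sorted alpha cell and 15 tissue libraries. Per the labels' protocols, the RNeasy kit gave the RNA and the TruSeq RNA kit the libraries. CASAVA 1.8, GSNAP and GRCm38 are named, without roles, in the submitters' processing notes; which counter, annotation and normalization were used is not given in the sources used here. Values were deposited by the authors in 2 tables and are taken as RPKM. The unit is absent from the headers and was inferred: the smallest value of a gene falls with its exon length (Spearman rho -0.55 over 3968 alpha cell genes and -0.66 over 1780 tissue genes). That bears on scaling to gene length and not on scaling to library reads. A date stood in place of 25 and 26 symbols, and 0 value columns lacked a library. In the tissue table, values were whole reads within 0.05 of a read in 17572 of 17573 genes above 0, up to a factor per gene, so recovered reads are lower bounds; they describe precision and were not tested. How the authors scaled each library sets the deposited-scale tissue differences.

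Differences on log2(RPKM + 1) were tested with the trended two-sided test of limma 3.58.1, run in R 4.3.3, with p-values adjusted by Benjamini-Hochberg over all genes tested and a threshold of 0.05, within each table and without covariates. A gene was tested where 3 alpha cell or 7 tissue libraries reached 1 RPKM. The fit was tested on simulated data. The rest was done in Python 3.11.15 (matplotlib 3.10.9, numpy 2.4.6, pandas 2.3.3, scipy 1.17.1). Gene positions are from GENCODE on GRCm38 and promoters (250 bases before to 50 after a start, matched for 8 of 10 genes) from RefSeq on GRCm38.p6. Likeness is the root mean square difference of gene-centred log2 values, named for Tmem27 and the 3 genes with the largest tissue difference. List genes were named where called or among the 2 of lowest p, and others were named after their values were seen. The genes and lists were chosen with earlier results of these data known, and 4 list genes are not reported here. Alternatives were median centring, quantile normalization, a pseudocount of 0.1, a mean of at least 5 RPKM, no filter, array weights, a replicate block, an acinar covariate, a library class term, and each library left out in turn.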

Additional observations from a re-analysis of the deposited data

Results flagged for a closer look

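Single libraries stood far from the rest of their group in 9 of 27 groups of values looked at, by the gap to the nearest library over the range of the group. Chance would mark about 1 in 20 if the values were normally distributed, which values near 0 are not. A group with a single value above 0 is always marked, as for Slc1a2 in knockout cells and Slc6a20a in non-tumor tissue. The count is therefore not read as an excess over chance. The 3 heterozygous libraries were too few for this rule, although Slc1a4 (10.5 RPKM, next 0.806) and Slc6a9 (2.50, next 0.123) were far higher in heterozygous library 2 than in the others. In knockout alpha cells these were Slc1a1 in library 4 (0.239 RPKM, next 0.016), Slc1a2 in library 3 (0.07, all others 0), Slc1a5 in library 5 (3.45, next 1.03) and Slc6a9 in library 3 (0.726, next 0.106). All 4 genes were below the expression filter there. In non-tumor tissue they were Slc1a5 in library 2 (16.7 RPKM, next 10.3) and Slc6a6 in library 1, the lowest (0.600, next 2.67). Slc6a20a in library 2 (0.0736, all others 0) also stood apart, on 1 read or more. Tumor 7 stood apart for Slc1a4 (3.61 RPKM, next 1.75) and Slc6a9 (8.28, next 3.60), and it held the highest acinar marker share of the tumors (21.9%).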

How the results depend on the processing

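In alpha cells the number of genes called over the whole table, 28, was 46 with quantile normalization, 15 with a pseudocount of 0.1, 0 without a filter, 90 with array weights, 50 with an acinar covariate, and 7 to 58 with 1 library left out. With array weights 1 of the 3 tested genes was called higher, Tmem27 (1.19, adjusted p = 0.0112). Slc6a17 there was 0.0788 with quantile normalization and -0.24 to 0.16 with 1 library left out, positive without heterozygous library 1. Tissue calls, 9647 over all genes, were 6377 with quantile normalization and 4087 with a mean of at least 5 RPKM, where fewer genes were tested. Slc1a4 turned to -1.32 with median centring and to -0.98 with quantile normalization. With the acinar covariate 0 of the 10 genes were called lower and Slc6a9 turned to 0.22, although the acinar marker sums do not overlap between the groups. Relative to the shift, calls over all genes, 6673, were 13843 without a filter, 2926 with a mean of at least 5 RPKM and 1617 with the acinar covariate, and 7 of the 10 genes were lower without a filter. The cause of these changes was not tested except where fewer or more genes entered. The replicate numbers did not pair the libraries (r of -0.22 to 0.15 between libraries of the same number); with the replicate block 2 alpha cell genes were called and Tmem27 differed by 1.06 (adjusted p = 0.534). Depth limits Slc1a1, Slc1a2, Slc6a19 and Slc6a20a, whose tissue levels rest on 0 to 36 reads a library.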

Other observations

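Over the 15 tissue libraries the genes nearest to Slc1a4 in pattern were Nars (0.149), Gid4 (0.158) and Mars (0.166), where Nars and Mars encode the asparagine and methionine transfer RNA synthetases and Gid4 a subunit of a ubiquitin ligase. These were read out after the values were seen, for a gene outside the 3 with the largest tissue difference. Slc6a6 lay nearest to Flot2 (0.216) and Slc1a5 to Slc35c2 (0.208). The ratio of Slc6a6 to Slc6a17 RPKM within a library was 1.89 to 2.82 in heterozygous alpha cells, 0.587 to 1.99 in knockout alpha cells and 0.958 to 1.43 in tumors, so the tumors lay below all 3 heterozygous libraries.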
